A study of Mus musculus with 7 samples.

Results

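The immunoreceptor tyrosine-based activation motif (ITAM) pathway was described through 10 genes in bulk RNA-seq of mouse long-term haematopoietic stem cells (LT-HSCs), which reside in bone marrow and give rise to every blood lineage. The genes are the adaptors Tyrobp and Fcer1g, the Src family kinases Lyn and Fyn, the kinase Syk, the scaffold proteins Lat and Lcp2, the Tec family kinase Btk, the phospholipase Plcg2 and the phosphatase Inpp5d. They were chosen by name, as signalling proteins that the platelet collagen receptor GPVI and myeloid Fc receptors share. Earlier results of these data were known when they were chosen, and they are 10 of 34932 genes with estimated reads. The samples were 4 libraries labelled B4galt1 KO, from mice on a 129S1 and C57Bl/6 background with a full knockout of B4galt1 (B4-/-), and 3 libraries labelled WT from wild-type mice on the same background. The sort for both groups kept cells without lineage markers or CD48 and with Sca-1, c-Kit and CD150. B4galt1 encodes an enzyme that adds galactose to N-glycans. The labels give no age and do not say that replicates are separate animals, so a p-value here reflects spread among these libraries only, part of which may be technical.

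In ITAM signalling a receptor without a signalling tail of its own is held by a small adaptor whose tail carries the motif. Src family kinases such as Lyn and Fyn phosphorylate the tyrosines of the motif, and Syk docks on them through its tandem SH2 domains. Syk then phosphorylates the scaffolds Lat and Lcp2 (SLP-76), on which Btk and Plcg2 assemble so that Plcg2 can release inositol trisphosphate and diacylglycerol. Inpp5d (SHIP1) removes a phosphate from phosphatidylinositol trisphosphate and thereby limits the recruitment of Btk. The route is best known from platelets answering collagen, from mast cells and basophils answering IgE, and from phagocytes and natural killer cells.

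The motifs themselves are shown because the results on the adaptors turn on Tyrobp and Fcer1g, which offer the same docking unit to Syk. The coding sequences below were read from GENCODE transcripts on GRCm38, 5′ to 3′, and capitals mark the codons of the motif's tyrosines and of the leucine or isoleucine that follows each of them at a fixed spacing. The Tyrobp motif spans chr7:30415670-30417382 on the plus strand and the Fcer1g motif chr1:171229889-171230072 on the minus strand, each broken by 1 intron that is not printed. Clec1b (CLEC-2), a platelet receptor that carries a single such unit in its own tail, called a hemITAM, is given for comparison (chr6:129397621-129397656, plus strand).
Tyrobp: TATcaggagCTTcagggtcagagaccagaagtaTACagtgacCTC
Fcer1g: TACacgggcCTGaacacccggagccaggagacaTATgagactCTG
Clec1b: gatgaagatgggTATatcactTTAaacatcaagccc
Both adaptor motifs are 15 codons long with 7 codons between their units. They share 19 of 45 bases and 5 of 15 encoded residues, so reads of one adaptor are unlike those of the other in this stretch.

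The libraries held between 23508985 and 34941390 estimated reads. B4galt1 was at 19.3, 14.9, 14.8 and 14.6 CPM (reads scaled to library size) across KO replicates 1 to 4 and at 19.2, 24.4 and 11.3 CPM across WT replicates 1 to 3, so its RNA did not separate the groups (edgeR adjusted p = 0.758) and every direction below rests on the labels. A count over the whole gene cannot reveal a missing exon. All 10 LT-HSC markers examined, among them Slamf1 (CD150), Kit and Procr, were present in each library, with summed levels of 1405 to 1640 CPM in the libraries labelled KO and 1728 to 1983 CPM in those labelled WT. The 4 Y-linked genes examined were high in 5 libraries and low in KO replicate 4 and WT replicate 3.

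Of the 10 genes 1 rose, Tyrobp, and 1 fell, Lat, in the libraries labelled KO at an adjusted p below 0.05 in edgeR's quasi-likelihood test. That test called 2.26% of the 14695 tested genes, 0.599% higher and 1.66% lower. DESeq2 and limma voom, run on the same libraries, each called Tyrobp and Lat and no other of the 10. Both called more genes in all than edgeR, which called 88 higher and 244 lower. DESeq2 called 378 higher and 567 lower, and limma voom 269 higher and 439 lower. All 10 genes passed the filter on low counts. The median log2 fold change was -0.22 over the 10 genes and 0.03 over all tested genes. As the 10 genes were chosen with earlier results of these data known, the counts and median describe them and support no more. The kinases, the phospholipase and the phosphatase did not pass. The groups did not overlap in CPM for 2 of the 10 genes, Tyrobp higher and Lat lower, against 15.7% of all tested genes (8.23% higher and 7.47% lower).

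Tyrobp (ENSMUSG00000030579, chromosome 7, 30413760 to 30417585, plus strand), also known as DAP12, is the ITAM adaptor of many receptors on myeloid and natural killer cells. It was at 42.5, 32.5, 49.8 and 21.1 CPM across KO replicates 1 to 4, against 13.2, 9.42 and 6.64 CPM across WT replicates 1 to 3. Every library labelled KO lay above every library labelled WT, and KO replicate 4 lay nearest to them. The means were 36.5 ± 12.4 CPM (SD, n = 4) and 9.77 ± 3.32 CPM (SD, n = 3), a 3.72-fold rise (log2 fold change 1.90, SE 0.336, edgeR adjusted p = 0.0148). The call was lost without WT replicate 2 (1.84, adjusted p = 0.0765) and without WT replicate 3 (1.67, adjusted p = 0.0671).

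Fcer1g (ENSMUSG00000058715, chromosome 1, 171229572 to 171234365, minus strand) encodes the Fc receptor gamma chain, which carries GPVI to the platelet surface and signals for IgE and IgG receptors. It was at 115.1, 81.7, 128.9 and 51.5 CPM across KO replicates 1 to 4 and at 173.2, 271.8 and 107.8 CPM across WT replicates 1 to 3. The groups overlapped, since KO replicates 1 and 3 stood above WT replicate 3. At -0.97 on the log2 scale (SE 0.344, 95% interval -1.73 to -0.21) the difference missed the threshold in edgeR (adjusted p = 0.222). With Y-linked expression as a covariate it was called (-1.04, edgeR adjusted p = 0.0147), the only 1 of 16 alternatives to call it. Over the 16 the difference ran from -1.25 to -0.57, and without WT replicate 2 it was -0.60 (edgeR adjusted p = 0.569).

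Per transcript length, the ratio of the adaptors could be compared within each library. Tyrobp stood at 0.468, 0.506, 0.490 and 0.516 times the length-corrected abundance (TPM) of Fcer1g across KO replicates 1 to 4, and at 0.0963, 0.0446 and 0.0799 times across WT replicates 1 to 3. The ratio varied little among the libraries labelled KO (0.495 ± 0.0209, SD, n = 4, against 0.0736 ± 0.0264, SD, n = 3, in those labelled WT), although both adaptors differed more than 2-fold between KO replicates 3 and 4. This ratio was chosen after its values were seen and was not tested.

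Markers of mast cells and basophils, cells that use Fcer1g and Tyrobp, moved with Tyrobp. The sum of 8 such markers was 1249, 533.8, 1268 and 345.0 CPM across KO replicates 1 to 4 and 303.8, 13.0 and 14.7 CPM across WT replicates 1 to 3. The libraries labelled KO had the same order from high to low in this sum as in Tyrobp, and WT replicate 1 was highest among its group in both. The KO order was not particular to these markers: the monocyte and macrophage sum below had it too, and so did Fcer1g, whose mean was lower with the KO label. WT replicate 1 was not the highest of its group in that sum or in Fcer1g. Of the 8 markers 6 had a higher median in the libraries labelled KO, 2 of the 6 tested passed upward (Fcer1a and Hdc), Tpsb2 was at 0 in every library and Cma1 stayed below 1 CPM. Summed markers of monocytes and macrophages were at 19.9 to 44.1 CPM in the libraries labelled KO and 12.5 to 15.6 CPM in those labelled WT, with Adgre1 and Fcgr1 below 1 CPM throughout. Most of that sum was Ms4a6c, the only marker of the 8 that passed (15.5 to 31.8 CPM in the libraries labelled KO and 8.32 to 10.99 CPM in those labelled WT). Summed neutrophil and granulocyte progenitor markers were at 105.7 to 210.0 CPM with the KO label and 89.8 to 102.3 CPM with the WT label. The groups did not overlap in this sum, although KO replicate 4, lowest of its group in Tyrobp, was highest. Most of it was Prtn3, whose ranges overlapped, and Mpo, which was higher in every library labelled KO. S100a8, S100a9, Camp and Ngp went the other way, each lower in every library labelled KO than in any labelled WT. Among the 7 tested markers downward calls outnumbered upward ones: 1 (S100a9) to 0 in edgeR, 3 to 2 in DESeq2 and 4 to 2 in limma voom. Summed T and NK cell markers were at 200.4 to 364.7 CPM with the KO label and 142.5 to 210.6 CPM with the WT label, with 5 of 8 medians higher in the libraries labelled KO, 0 passing in edgeR (2 higher at an unadjusted p below 0.05), 0 in DESeq2 and 1 in limma voom (Nkg7), and Ncr1 at 0 throughout. The part of these cell types in the Tyrobp difference was not tested, and in bulk samples fewer cells of a type and less RNA per cell cannot be told apart. The sort leaves out lineage-positive cells, and whether it left out all cells of these types was not tested.

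**Figure D1:**
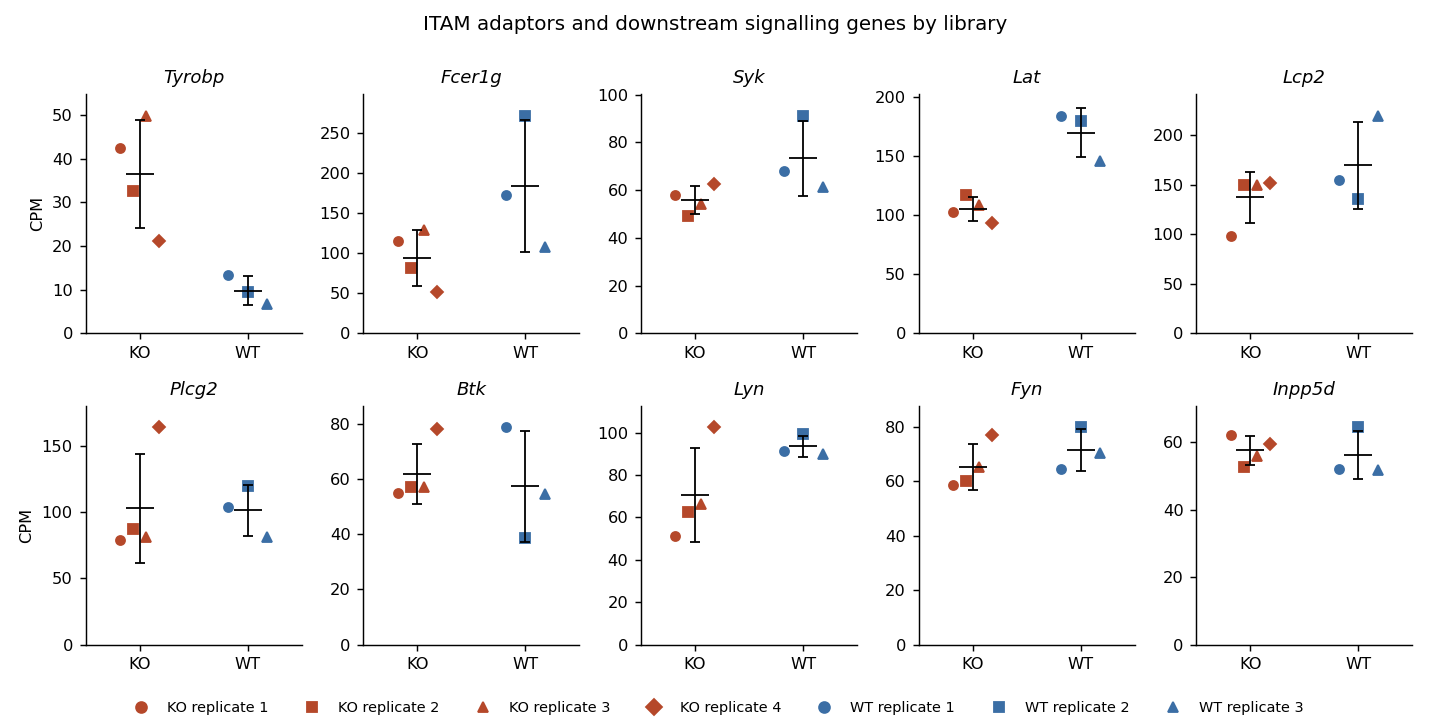
CPM of the 10 genes in each library, with libraries labelled KO on the left and WT on the right. Points are libraries, and bars are the mean and SD (n = 4 and n = 3). Tyrobp and Lat are the genes whose groups do not overlap, Tyrobp upward at 21.1 to 49.8 CPM against 6.64 to 13.2 CPM and Lat downward.

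Among the kinases that act on the motif, Lyn, the main Src family kinase of mast cells and B cells, was at 51.2, 62.7, 66.4 and 102.5 CPM across KO replicates 1 to 4, against 91.5, 99.1 and 90.0 CPM across WT replicates 1 to 3. KO replicates 1 to 3 lay below all WT libraries and KO replicate 4 above them. The log2 fold change was -0.40 (95% interval -0.89 to 0.08, edgeR adjusted p = 0.439), and without KO replicate 4 it was -0.63 (adjusted p = 0.0602). Fyn, the other Src kinase of the list, was at 58.6, 60.2, 65.5 and 77.2 CPM across KO replicates 1 to 4 and at 64.5, 79.9 and 70.4 CPM across WT replicates 1 to 3. Its log2 fold change was -0.13 (95% interval -0.49 to 0.23).

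Syk, the kinase that reads the phosphorylated motif, was at 57.8, 49.0, 54.2 and 62.6 CPM across KO replicates 1 to 4, against 67.9, 91.1 and 61.2 CPM across WT replicates 1 to 3. KO replicate 4 stood above WT replicate 3, so the groups overlapped. At -0.39 on the log2 scale (SE 0.178), edgeR gave an unadjusted p of 0.0503 and an adjusted p of 0.342. Btk, the X-linked kinase that activates phospholipase C gamma, was at 55.1, 57.3, 57.0 and 78.3 CPM across KO replicates 1 to 4 and at 78.9, 38.8 and 54.7 CPM across WT replicates 1 to 3. The WT range enclosed the KO range, and the log2 fold change was 0.11 (95% interval -0.42 to 0.64).

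Lat (ENSMUSG00000030742, chromosome 7, 126363824 to 126369570, minus strand), the membrane scaffold of GPVI, T cell receptor and IgE receptor signalling, fell. Its level was 102.4, 116.7, 108.3 and 93.2 CPM across KO replicates 1 to 4, against 183.9, 179.4 and 146.2 CPM across WT replicates 1 to 3. No library labelled KO reached the lowest WT library. The means were 105.2 ± 9.89 CPM (SD, n = 4) and 169.8 ± 20.6 CPM (SD, n = 3), a difference of -0.69 on the log2 scale (SE 0.153, edgeR adjusted p = 0.0449). The call sat close to the threshold and was lost without any 1 of the 7 libraries (adjusted p 0.0537 to 0.171, log2 fold change -0.80 to -0.63). Megakaryocyte and platelet markers moved the same way: 10 of 12 passed downward, against 1.66% of all tested genes, and none was at 0. Their sums were 1080 to 1994 CPM in the libraries labelled KO and 5336 to 12018 CPM in those labelled WT. Within the groups the order differed. The sum was highest in KO replicate 1 and WT replicate 2, and Lat in KO replicate 2 and WT replicate 1. KO replicate 4 and WT replicate 3 were lowest of their groups in both. The part of megakaryocytes and platelets in the Lat difference was not tested.

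Lcp2, the cytosolic scaffold that joins Lat, and Plcg2, the lipase assembled there, did not pass. Lcp2 was at 98.4, 149.7, 149.7 and 151.9 CPM across KO replicates 1 to 4 and at 154.7, 135.2 and 219.5 CPM across WT replicates 1 to 3, with KO replicate 1 below all others. Its log2 fold change was -0.31 (95% interval -0.78 to 0.17). Plcg2 was at 78.7, 87.4, 81.0 and 164.1 CPM across KO replicates 1 to 4 and at 104.0, 119.5 and 81.1 CPM across WT replicates 1 to 3. KO replicate 4 carried nearly double the level of the other libraries labelled KO, and the fitted difference of 0.02 (95% interval -0.58 to 0.61) became -0.29 without it (edgeR adjusted p = 0.492).

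Inpp5d gave different answers in reads and in TPM. In CPM it was at 62.3, 52.7, 55.9 and 59.6 across KO replicates 1 to 4 and at 52.2, 64.5 and 51.9 across WT replicates 1 to 3, with overlapping groups and a log2 fold change of 0.04 (95% interval -0.31 to 0.38). In TPM it was at 44.3, 33.8, 38.8 and 33.8 in the same KO libraries and at 18.9, 20.02 and 19.4 in the WT libraries, with no overlap. Most of the excess lay in Inpp5d-203, an annotated retained intron of 364 nt, which held 27.3, 21.8, 23.3 and 14.8 TPM across KO replicates 1 to 4 and 6.63, 4.66 and 5.29 TPM across WT replicates 1 to 3. A short transcript gains more TPM per read, and the reads behind these values were 122, 108, 110 and 78.1 for the KO libraries and 37.2, 21.3 and 20.3 for the WT libraries. Without the retained intron and processed transcripts, a choice made after seeing the values, Inpp5d was at 12.7 ± 3.21 TPM with the KO label and 11.7 ± 1.72 TPM with the WT label (SD, n = 4 and n = 3; exact two-sided permutation p = 0.743).

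**Figure D2:**
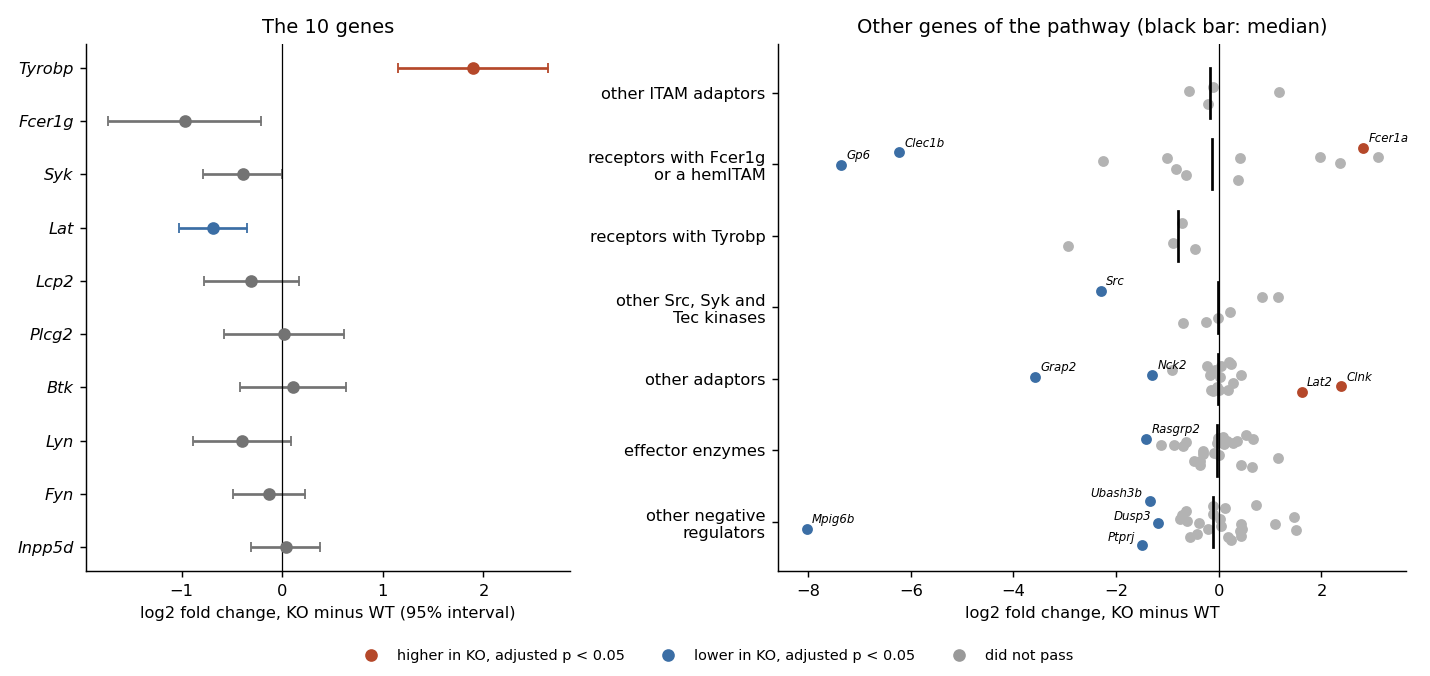
Log2 fold changes, KO minus WT. The left panel gives the 10 genes with their 95% intervals, where Tyrobp at 1.90 and Lat at -0.69 passed; the right panel gives each tested gene of 7 lists of other pathway genes, with called genes coloured and named and a black bar at each list's median, and shows 3 called genes to the right of 0 and 10 to the left.

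Levels between genes were compared in TPM, which corrects for transcript length. In the libraries labelled KO the order by mean was Fcer1g (187.6 ± 62.1 TPM), Lat (131.1 ± 9.56), Tyrobp (92.1 ± 28.2), Lcp2 (52.2 ± 17.0), Inpp5d, Btk, Plcg2, Fyn, Lyn and last Syk (12.5 ± 2.69; SD, n = 4). Neighbours in this order overlapped in their ranges except Lyn and Syk. In the libraries labelled WT it was Fcer1g (316.1 ± 105 TPM), Lat (187.2 ± 19.5) and Lcp2 (53.5 ± 24.3), each apart from the next in its range, then Lyn, Btk, Plcg2, Fyn, Tyrobp (22.0 ± 7.36) and Inpp5d, which overlapped with their neighbours, and Syk (13.5 ± 1.25; SD, n = 3) below. Tyrobp was thus the third of the 10 genes in the libraries labelled KO and the eighth in those labelled WT. Fcer1g, Lat and Syk held the first, second and last place in both. The place of Inpp5d counts all its transcripts. Without the retained intron and processed transcripts its mean was 12.7 TPM with the KO label, near that of Syk. With the WT label it was 11.7 TPM, below that of Syk.

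The deposited files divide each gene's reads among annotated transcripts, of which 27 of these genes held at least 5% of the reads in some library. Tyrobp was carried mainly by Tyrobp-201 (114 codons) and Tyrobp-202 (140 codons). Tyrobp-201 had 668, 630, 789 and 356 estimated reads across KO replicates 1 to 4 and 199, 127 and 113 across WT replicates 1 to 3. Tyrobp-202 had 392, 239, 540 and 375 for the KO libraries and 160, 72.6 and 36.9 for the WT libraries. Both forms thus stood higher in every library labelled KO, and their shares overlapped between the groups.

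Lyn has a long form of 512 codons and a short form of 491 codons. The long form, Lyn-201, held 68.7%, 61.4%, 73.4% and 62.6% of Lyn reads across KO replicates 1 to 4, and 65.2%, 52.8% and 55.9% across WT replicates 1 to 3. The shares overlapped, and the difference of 8.55 percentage points had an exact two-sided permutation p of 0.171. For Fyn, Fyn-201, Fyn-204 and Fyn-205, which code for 534 codons each and were the transcripts of that length above the 5% limit, held together 67.4% ± 3.46 with the KO label and 72.2% ± 10.3 with the WT label (SD, n = 4 and n = 3), and the 537-codon transcript held 19.6% ± 4.65 with the KO label and 14.0% ± 11.6 with the WT label. WT replicate 2 held only 1.04% of its Fyn reads on the 537-codon form. Syk-201 and Syk-203 have the same coding sequence. Together they held 94.9% ± 1.16 of Syk reads with the KO label and 99.2% ± 0.340 with the WT label (SD, n = 4 and n = 3). The groups did not overlap in this joint share, with an unadjusted exact two-sided permutation p of 0.0571.

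Taken singly, only Fcer1g-201 and Inpp5d-203 among the 27 transcripts had shares that did not overlap between the groups. Fcer1g-201 (86 codons) held 99.49% to 99.78% of Fcer1g reads with the KO label, against 99.09% to 99.44% with the WT label. Inpp5d-203 held 7.62%, 7.58%, 7.18% and 3.54% of Inpp5d reads across KO replicates 1 to 4 and 2.42%, 1.55% and 1.68% across WT replicates 1 to 3. With 4 against 3 libraries the smallest possible two-sided exact p is 0.0571, which both reached, and after Benjamini-Hochberg adjustment over the 27 transcripts the lowest p of this exact test was 0.686.

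**Figure D3:**
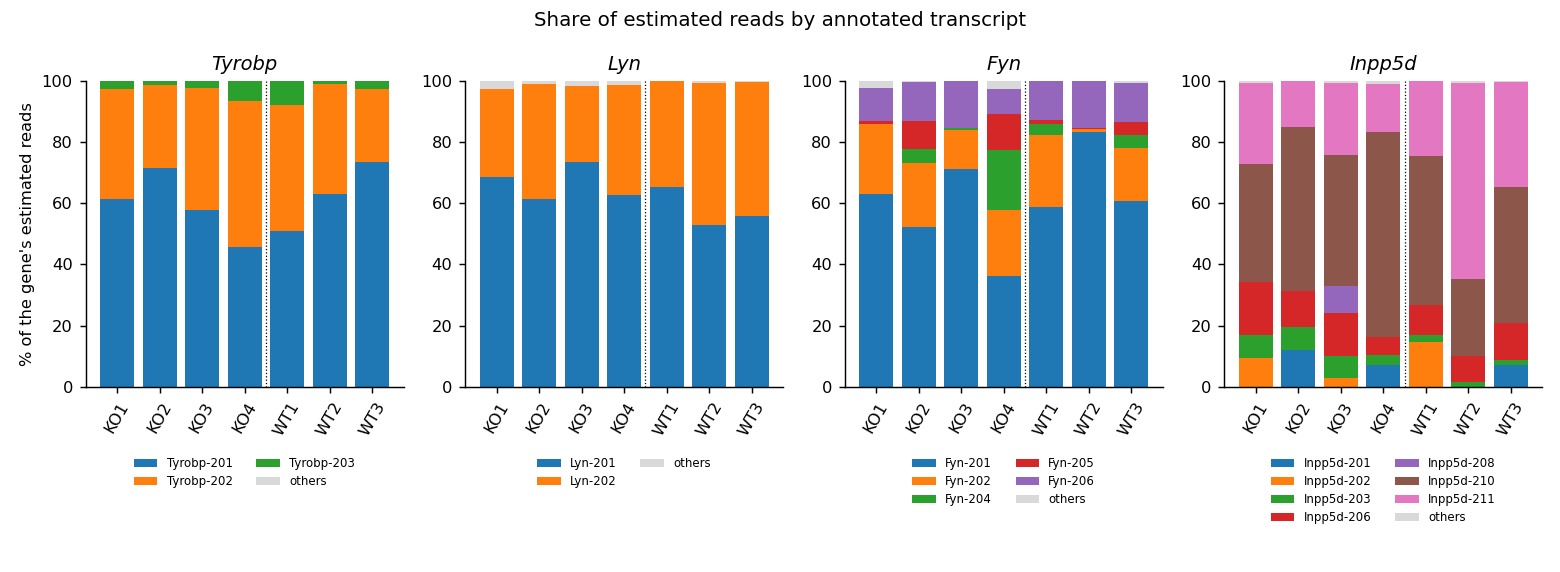
Share of each gene's estimated reads by annotated transcript in every library, for Tyrobp, Lyn, Fyn and Inpp5d. Bars are libraries (KO1 to KO4 left of the dotted line, WT1 to WT3 right of it) and colours are transcripts. Tyrobp-201 and Lyn-201 hold most reads of their genes in most libraries, and Inpp5d-203 holds at most 7.62%.

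The other genes of the pathway were examined in 7 lists of 121 genes, of which 98 were tested. Of these 3 rose and 10 fell, beside 2.26% called over all tested genes, and the median log2 fold change was -0.07, against 0.03 over all genes. The lists were chosen with earlier results of these data known, so these counts describe the lists and support no more. The 13 called genes were 3 receptors, 4 adaptors, 4 negative regulators, 1 kinase and 1 exchange factor, counted by the list that holds them.

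Of 12 tested receptors that pair with Fcer1g or carry a hemITAM, 2 fell and 1 rose. Gp6 (GPVI), the platelet collagen receptor that depends on Fcer1g, was at 0.546, 0.185, 0.256 and 0.243 CPM across KO replicates 1 to 4, against 51.8, 63.2 and 36.2 CPM across WT replicates 1 to 3 (log2 fold change -7.36, SE 0.370, edgeR adjusted p = 7.95e-06). Clec1b was at 6.13, 2.33, 3.95 and 1.32 CPM, against 271.2, 339.1 and 152.9 CPM in the WT libraries (-6.23, SE 0.491, adjusted p = 6.89e-05). The libraries labelled KO were more than 20-fold below the lowest WT library for both receptors. Clec1b is itself 1 of the 12 megakaryocyte and platelet markers given above, of which 10 fell, and the part of those cells in the fall of Gp6 and Clec1b was not tested. In the other direction, Fcer1a, the IgE-binding chain of the high-affinity IgE receptor, was at 77.6, 64.7, 117.6 and 28.2 CPM across KO replicates 1 to 4 and at 20.04, 5.48 and 5.09 CPM across WT replicates 1 to 3 (2.81, SE 0.580, adjusted p = 0.0328). Fcer1a is also among the mast cell and basophil markers given above, and it lost its call without KO replicate 1, 2 or 3 or WT replicate 2 or 3 (adjusted p up to 0.141) and stood at 3.76 without WT replicate 1.

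Of 16 receptors that pair with Tyrobp 12 did not pass the filter on low counts, as 20237 of all 34932 genes did not. Of the 4 tested edgeR called 0, with 2 lower at an unadjusted p below 0.05 and 1 lower (Trem1) with DESeq2 and with limma voom. Trem1, which amplifies inflammatory responses of myeloid cells, was at 0.234, 0.222, 0.1097 and 0.0270 CPM across KO replicates 1 to 4 and at 0.849, 1.41 and 1.16 CPM across WT replicates 1 to 3 (log2 fold change -2.94, edgeR adjusted p = 0.0689). Plxna1 was at -0.89 (adjusted p = 0.315).

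The list of other ITAM adaptors also held Hcst (DAP10), an adaptor without an ITAM. Of its 4 tested genes, Hcst included, edgeR, DESeq2 and limma voom called 0. At an unadjusted p below 0.05 edgeR found 0. Cd79b, the B cell receptor chain, was at 47.6 to 64.5 CPM in the libraries labelled KO and 61.5 to 68.2 CPM in those labelled WT (log2 fold change -0.21), and Cd3d, a T cell receptor chain, was at 1.18 (adjusted p = 0.571). Of the summed B cell markers, 51.7 to 67.1 CPM in the libraries labelled KO and 64.0 to 70.9 CPM in those labelled WT, nearly all was Cd79b. Pax5 and Igll1 were at 0 in every library.

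Of 20 tested adaptors and scaffolds 2 rose and 2 fell. Lat2 (NTAL), a Lat-like scaffold of mast cells and B cells, was at 21.6, 20.6, 29.4 and 21.9 CPM across KO replicates 1 to 4, against 9.72, 6.89 and 6.25 CPM across WT replicates 1 to 3 (log2 fold change 1.61, SE 0.247, edgeR adjusted p = 0.00601). Clnk (MIST), an Lcp2-related adaptor of mast cells and natural killer cells, was at 20.6, 36.1, 29.7 and 38.7 CPM, against 5.67, 1.92 and 10.3 CPM in the WT libraries (2.38, SE 0.475, adjusted p = 0.0275). Lat2 and its relative Lat thus lay in opposite directions. Grap2 (Gads), which links Lat to Lcp2, was at 3.63, 1.03, 2.12 and 2.16 CPM across KO replicates 1 to 4, against 20.5, 32.8 and 27.2 CPM across WT replicates 1 to 3 (-3.59, SE 0.379, adjusted p = 0.000546). Nck2, which binds Lcp2 and actin regulators, was at 12.6, 15.9, 12.4 and 14.7 CPM, against 36.3, 33.5 and 33.4 CPM in the WT libraries (-1.31, SE 0.183, adjusted p = 0.0036). All 4 separated the groups without overlap, as did 15.7% of all tested genes. They were named for their calls on the same libraries, so this adds no support. Clnk lost its call without KO replicate 2 or 3 or WT replicate 1 (adjusted p up to 0.127) and was at 3.00 without WT replicate 3. Lat2 overlaps Rfc2 on the opposite strand, which was at 460.0 to 581.6 CPM in the libraries labelled KO and 263.7 to 450.9 CPM in those labelled WT, and without strand the division of their reads is uncertain.

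**Figure D4:**
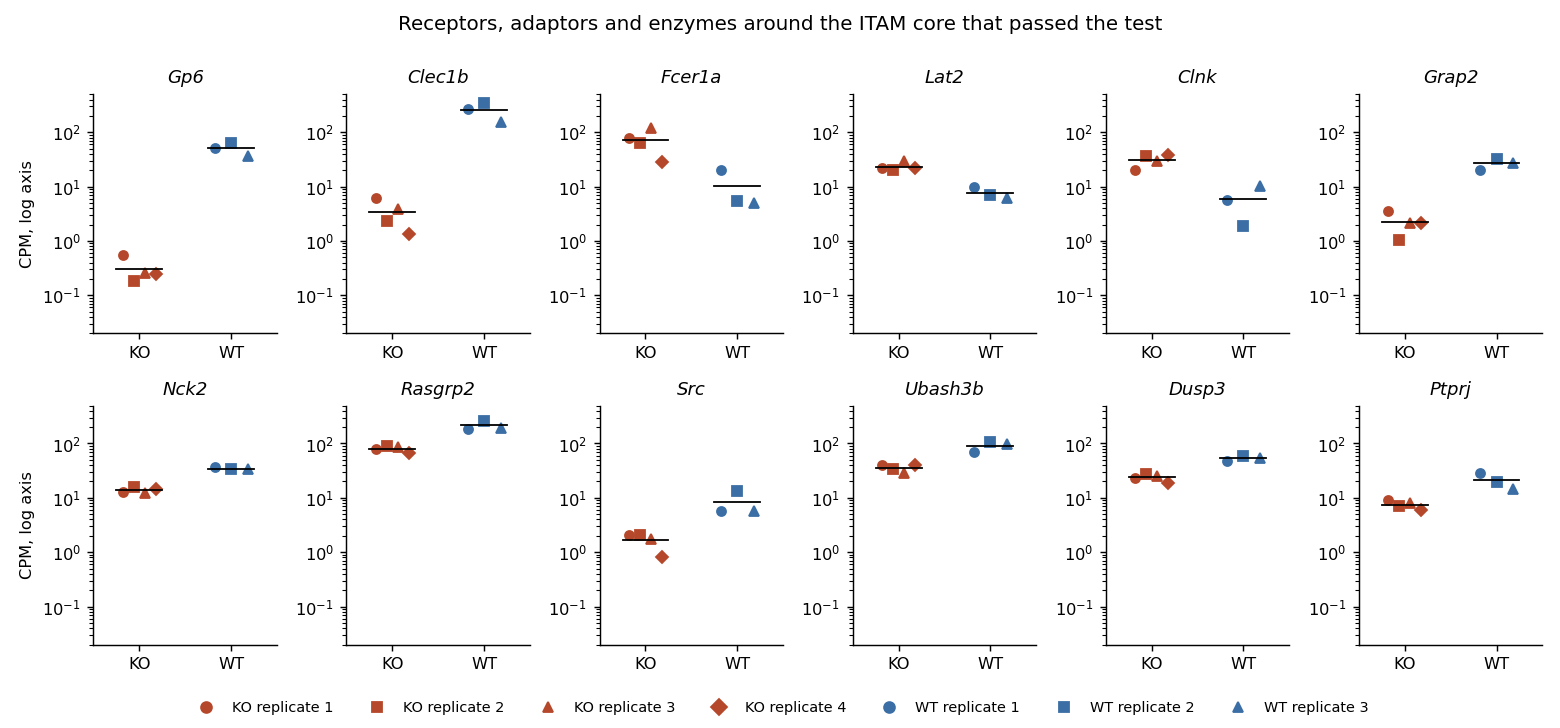
CPM on a log axis of 12 of the 13 pathway genes outside the 10 that passed the test (Mpig6b, at -8.03 on the log2 scale, is not drawn), with libraries labelled KO on the left and WT on the right. Points are libraries and lines are group means (n = 4 and n = 3). Of the genes drawn, Gp6 and Clec1b show the widest gaps between group means, and Fcer1a, Lat2 and Clnk are the genes that lie higher in the libraries labelled KO.

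Of 7 tested Src, Syk and Tec kinases outside the 10 genes, Src alone passed. It was at 2.11, 2.11, 1.72 and 0.810 CPM across KO replicates 1 to 4 and at 5.74, 13.5 and 5.73 CPM across WT replicates 1 to 3 (log2 fold change -2.30, SE 0.456, edgeR adjusted p = 0.0265). The call, though not the direction, was lost without KO replicate 2 (-2.43), KO replicate 3 (-2.32) or WT replicate 2 (-1.79), with adjusted p of 0.0707 to 0.111. Of 24 effector enzymes and exchange factors 1 passed, Rasgrp2, the Rap1 exchange factor (CalDAG-GEFI) that acts after calcium release in platelets. Rasgrp2 was at 80.2, 90.3, 86.2 and 65.7 CPM across KO replicates 1 to 4, against 187.7, 261.5 and 195.2 CPM across WT replicates 1 to 3 (-1.41, SE 0.176, adjusted p = 0.00168).

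Of 27 phosphatases, inhibitory receptors and other genes listed as negative regulators outside the 10 genes, 4 passed in edgeR, all downward. DESeq2 called 5 lower, and limma voom called 5 lower and 1 higher (Lilrb4a, at 1.46 with an edgeR adjusted p of 0.264). Ubash3b (STS-1), a phosphatase that acts on Syk, was at 40.1, 33.5, 29.3 and 40.4 CPM across KO replicates 1 to 4, against 68.8, 104.9 and 99.4 CPM across WT replicates 1 to 3 (log2 fold change -1.35, SE 0.195, edgeR adjusted p = 0.00444). Dusp3 was at 23.7 ± 3.77 CPM with the KO label and at 53.9 ± 5.66 CPM with the WT label (SD, n = 4 and n = 3; -1.18). Ptprj (CD148), a receptor phosphatase that in platelets is also known to keep Src kinases active, averaged 7.48 ± 1.36 CPM with the KO label and 21.1 ± 7.36 CPM with the WT label (-1.50, adjusted p = 0.0187), and lost its call without KO replicate 2 or 3 or WT replicate 1 (adjusted p up to 0.0942). Mpig6b (G6b-B), an ITIM receptor of megakaryocytes that restrains GPVI, was at 0.663, 0.111, 0.0731 and 0.0270 CPM across KO replicates 1 to 4, against 70.0, 55.4 and 37.6 CPM across WT replicates 1 to 3 (-8.03, and -9.60 without KO replicate 1). It overlaps Ly6g6c on the opposite strand, so the division of their reads is uncertain. Reads of Inpp5d, the negative regulator among the 10 genes, did not pass in any of the 16 alternatives (edgeR, DESeq2 or limma adjusted p 0.0963 to 0.988).

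**Figure D5:**
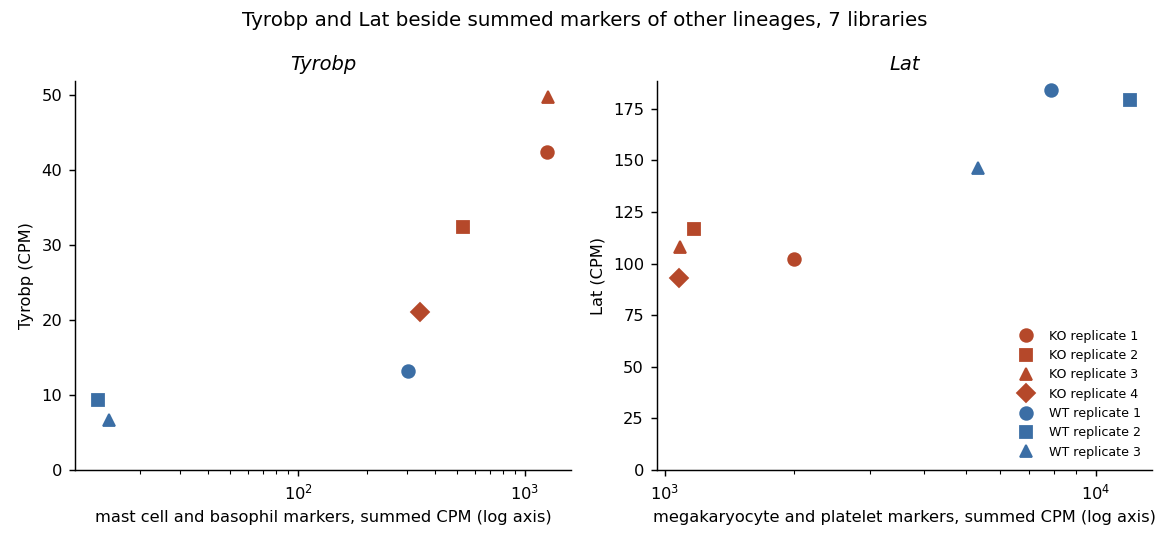
Tyrobp in CPM against the summed CPM of 8 mast cell and basophil markers (left) and Lat in CPM against the summed CPM of 12 megakaryocyte and platelet markers (right), both sums on log axes. Each point is 1 of 7 libraries. Tyrobp lies highest across KO replicates 3 and 1, where the marker sums are 1268 and 1249 CPM, and the libraries labelled WT lie apart to the right in the Lat panel, at 5336 CPM and above.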

How the data were processed

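The deposited tables list transcripts. Cutadapt, Salmon 0.11.2 and mm10 are named in the submitters' processing notes; which transcript set was quantified is unknown here. Estimated counts per transcript and TPM values were used as the authors deposited them. Per the labels' protocols the libraries were made with SMART-Seq v4 and ThruPLEX, which keep no strand. Transcripts were joined without version to GENCODE M21 (GRCm38): 111787 of 112092 matched, and the other 305 held 0.0836% to 0.123% of reads. Estimated counts were summed to 34932 genes and rounded.

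KO and WT libraries were compared with edgeR 4.0.16 (quasi-likelihood test, TMM scaling, filterByExpr, Benjamini-Hochberg adjustment over 14695 genes, adjusted p below 0.05) in R 4.3.3. CPM uses TMM-scaled library sizes. The SE is the absolute log2 fold change over the root of F. On simulated counts of this comparison (14364 genes tested) 37 of 100 genes changed 2-fold and 82 of 100 changed 4-fold were recovered. Transcript shares were compared by exact permutation. Intervals cover the spread between libraries, and depth gives counting error only, since reads carry no molecular identifiers.

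The 10 genes and the lists were chosen with earlier results of these data known. Named were all 10 genes, B4galt1, Gp6, Clec1b and, per list, up to 4 called genes per direction by smallest p, or the 2 of smallest p where none passed. Other genes with values were named after their values were seen. Alternatives were RLE scaling, other filters (none, or at least 1 CPM in 3 libraries and 50 reads), DESeq2 1.42.0 and limma 3.58.1 voom. The voom fit weighted each library by its estimated quality. Further alternatives were a length offset from the deposited effective lengths, the replicate number as a block and Y-linked expression as a covariate. The rest were the 5 libraries with Y-linked expression and each library left out.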

Additional observations from a re-analysis of the deposited data

Results flagged for a closer look

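Of 38 quantities checked over the 4 KO libraries, 8 held a library that stood far off the remaining 3. About 1 in 20 groups is flagged by chance, and the CPM and TPM of a gene are not independent. KO replicate 4 stood high for Plcg2, at 164.1 CPM against 78.7 to 87.4 CPM in the other KO libraries, and at 49.1 TPM against 19.4 to 21.5 TPM. The same library was high for Btk, at 78.3 CPM against 55.1 to 57.3 CPM, and at 52.0 TPM against 30.5 to 33.9 TPM. KO replicate 1 stood low for Lcp2, at 98.4 CPM against 149.7 to 151.9 CPM. It stood high for B4galt1, at 19.3 CPM against 14.6 to 14.9 CPM, and for Mpig6b, at 0.663 CPM against 0.0270 to 0.111 CPM. KO replicate 3 was high for Lat2, at 29.4 CPM against 20.6 to 21.9 CPM. Groups of 3 libraries were not examined.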

How the results depend on the processing

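Tyrobp ran from 1.67 to 2.17 on the log2 scale over 16 alternatives and passed in 14; Lat ran from -0.80 to -0.62 and passed in 8. With 1 library left out, the count of the 10 genes called was 0 to 1 higher and 0 lower throughout, the count over all genes 30 to 130 higher and 157 to 279 lower, and the count of other pathway genes 1 to 4 higher and 8 to 11 lower. With Y-linked expression as a covariate 2 of the 10 genes fell, and all genes called were 218 higher and 396 lower. DESeq2 called 378 higher and 567 lower, limma voom 269 higher and 439 lower with 5 pathway genes higher, and the length offset 214 higher and 252 lower (88 and 244 as reported) with 6 pathway genes higher. The cause of these differences was not tested.

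Deviations of same-numbered libraries correlated at -0.12 to -0.04, and 0 of 3 KO libraries correlated best with its own number. These few correlations cannot settle whether same-numbered libraries belong together. KO replicate 4 has no WT library of its number, so it added nothing to the difference fitted with that number as a block. Leaving KO replicate 4 out gave -0.63 for Lat and -0.29 for Plcg2. With the replicate block, 58 genes were higher, 0 of the 10 genes fell, Lat was at -0.63 (adjusted p = 0.185) and Plcg2 at -0.29, and Src, Clnk and Ptprj lost their calls (adjusted p = 0.0687, 0.0508 and 0.0598).

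The sign changed only for genes that did not pass. Plcg2 was at -0.00105 with DESeq2, -0.16 with limma voom, -0.0376 with the length offset, -0.0295 with the Y-linked covariate, -0.43 among the 5 libraries with Y-linked expression, and -0.29 to 0.12 with 1 library left out. Btk was at -0.13 with limma voom, -0.0580 among the 5 libraries, and -0.14 to 0.39 with 1 library left out. Inpp5d was at -0.0200 among the 5 libraries and at -0.0321 to 0.12 with 1 left out, and B4galt1 at -0.47 to 0.0369 with 1 left out. Inpp5d was at 0.71 with the length offset (adjusted p = 0.0963) and at 0.96 as a log2 ratio of mean TPM. With 4 against 3 libraries, changes near 2-fold were often missed on simulated counts, so genes that did not pass are not shown to be equal.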
